A study of Mus musculus with 12 samples.

Results

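Transcripts of the matrix metalloproteases (MMP), of the ADAMTS proteases and of the tissue inhibitors of metalloproteases (TIMP) were measured by RNA sequencing in white fat from the gonads of C57BL/6N mice. The members are all genes whose symbol is Mmp, Adamts or Timp followed by a digit, and they number 44 of the 32772 genes listed, with 21 MMP, 19 ADAMTS and 4 TIMP genes. All 44 are in the table of the diet groups and 43 are in the table of the injected groups, which lacks Mmp1a. Of the 44 members, 35 averaged at least 1 CPM (counts scaled to a common library total) in at least 1 group.

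There were 12 libraries in 4 groups of 3, and all mice were of this inbred strain and were 6 weeks old when an 18-week diet began. HFD PCN mice ate a high-fat diet and were injected intraperitoneally with 50 mg/kg PCN once a day for 4 days. PCN, a synthetic steroid, activates the pregnane X receptor of rodents. HFD Vehicle mice ate the same kind of diet and had 30% DMSO in corn oil on the same schedule. HFD mice ate the high-fat diet and Chow mice regular chow, and the labels state no treatment for either. Sex is not stated, nor whether the PCN was dissolved in the vehicle of the other injected group. No label says that the libraries came from separate animals, so a p-value here reflects only how much the samples vary, and that variation may be technical.

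Library totals ranged from 11090117 to 27408092 counts. The title names gonadal white adipose tissue and the source label names duodenum. The summed level of 6 adipocyte markers was 5824 to 18807 CPM, and that of the 4 or 5 listed intestinal epithelium markers was 10.6 to 43.6 CPM. HFD Vehicle 50 stood apart from its group and resembled Chow in the measures that follow, though not in every member (Adamts4 is an exception). Its level of Adgre1, a macrophage surface marker, was 68.2 CPM, against 936 CPM in HFD Vehicle 23, 904 CPM in HFD Vehicle 55 and 21.0 to 74.1 CPM in Chow. Mitochondrially encoded genes took 7.85% of its counts, 7.30 to 29.6% in Chow and 2.30 to 3.47% in all the other libraries. Within Chow, Chow 19 stood apart at 29.6%, against 7.30% in Chow 8 and 10.6% in Chow 17. Counts and estimates of the comparisons with HFD Vehicle that the text leads with are given with and without HFD Vehicle 50, and its value is shown for each member.

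MMPs are zinc-dependent proteases that cut collagens, elastin, proteoglycans and other proteins of the extracellular matrix, and most are secreted as inactive proforms or anchored in the cell membrane. ADAMTS proteases carry thrombospondin repeats that hold them in the matrix, where they trim procollagens and cut proteoglycans such as versican. TIMPs bind the active site of these enzymes. In fat, the family is known for the remodelling of matrix and vessels that goes with the growth and shrinkage of adipocytes.

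The diet changed most of the measurable members, in both directions. Of 44 members, 34 had enough counts to be tested, and 15 were higher in HFD than in Chow, 11 were lower and 8 were not called at an adjusted p under 0.05. Over all 16216 genes tested, 59.8% were called, 29.8% higher and 30.0% lower, so a call as such was common. Scaling by library totals alone gave 5583 genes higher and 3113 lower, and 15 and 10 members. Called members that differed at least 2-fold numbered 21 of 34, against 32.7% of all genes tested. CPM values of HFD and Chow libraries did not overlap for 25 of the 34, 15 higher and 10 lower, against 65.6% of all genes, 42.4% higher and 23.1% lower. The median log2 fold change (HFD over Chow) was -0.16 for these 34 and -0.03 for all genes. The median of all genes moved to -0.13 with upper quartile scaling and to 0.22 with library totals. Fold changes use edgeR's TMM scaling and printed CPM do not, so a small fold change can have the opposite sign to the CPM means. Among 15 tested MMPs, 10 were higher and 3 lower, among 15 tested ADAMTS genes 3 were higher and 6 lower, and of the 4 TIMPs 2 were higher and 2 lower.

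**Figure D1:**
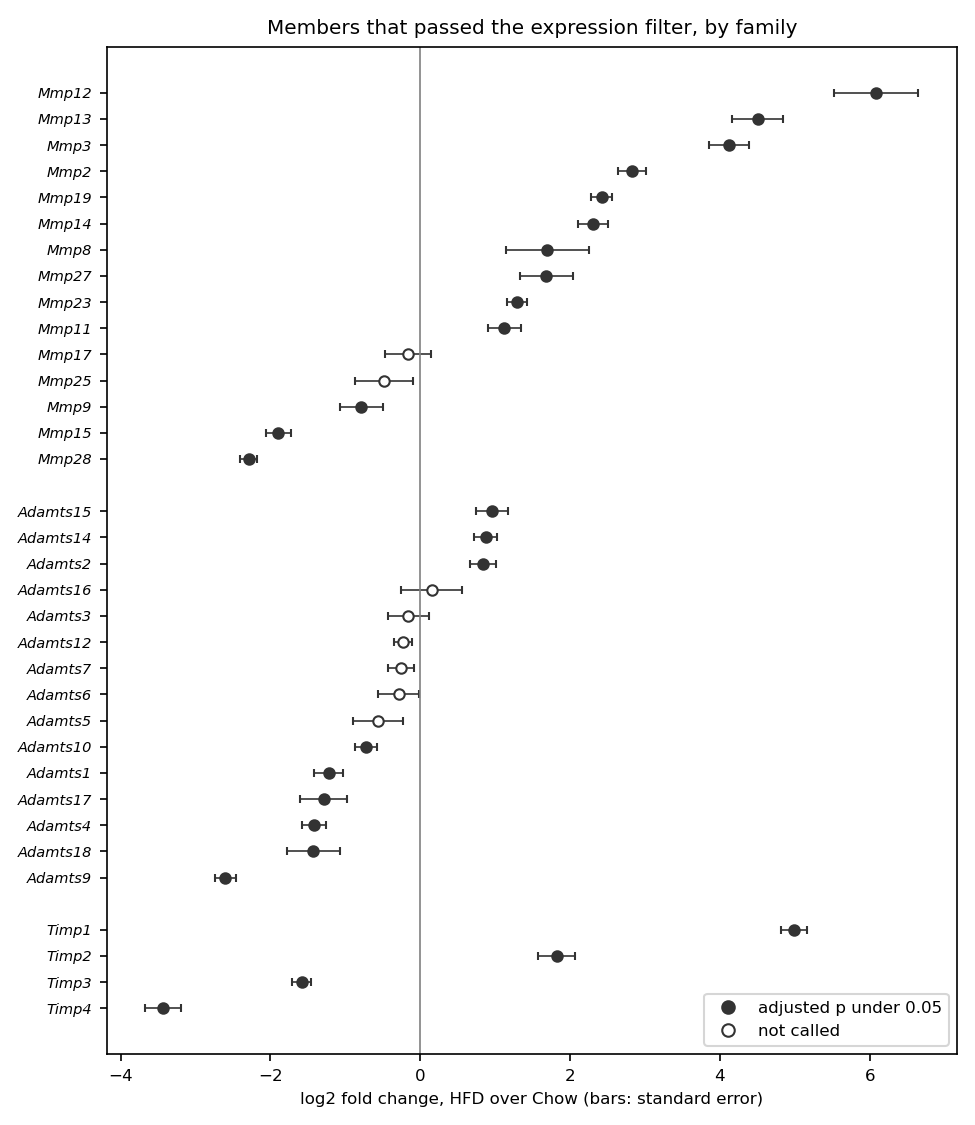
Log2 fold change of HFD over Chow for the 34 members with enough counts, in 3 blocks (MMP, ADAMTS, TIMP) sorted by value. Points are edgeR estimates from 3 libraries a group, bars are standard errors, and filled points have an adjusted p under 0.05; Mmp12 (6.09), Timp1 (4.99) and Mmp13 (4.50) lie farthest to the right and Timp4 (-3.43) farthest to the left.

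In 427 kb of chromosome 9 (build GRCm38, as for all positions below, chr9:7272514-7699585) lie 8 MMP genes, all on the plus strand, in the order Mmp13, Mmp12, Mmp3, Mmp1a, Mmp10, Mmp8, Mmp27 and Mmp7. Of these, 5 had enough counts to be tested and all 5 were called higher in HFD, against 29.8% of all genes tested. Summed over Chow, Mmp13, Mmp8 and Mmp27 had 11, 11 and 24 counts, against 543, 76 and 166 in HFD. They had enough counts only through HFD, which largely fixed their direction. The count of 5 is therefore no measure of a rise of the cluster. The bases just before the transcript start of 6 of them are printed here because the cluster members differ in the letters they carry there. AP-1, a dimer of Fos and Jun proteins, is a known activator of several MMP genes through the letters TGAGTCA, and many of these promoters also have a TATA box. Each stretch is 120 bases long, ends just before a RefSeq transcript start (GRCm38.p6) and reads 5′ to 3′ on the plus strand. Capitals mark TGAGTCA or its reverse complement TGACTCA, and TATAAA.
Mmp13, chr9:7272394-7272513: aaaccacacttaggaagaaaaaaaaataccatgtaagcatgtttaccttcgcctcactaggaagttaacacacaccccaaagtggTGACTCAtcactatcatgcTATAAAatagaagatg
Mmp12, chr9:7347254-7347373: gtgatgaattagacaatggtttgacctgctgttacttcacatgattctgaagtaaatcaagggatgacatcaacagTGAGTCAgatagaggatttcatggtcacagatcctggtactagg
Mmp3, chr9:7445702-7445821: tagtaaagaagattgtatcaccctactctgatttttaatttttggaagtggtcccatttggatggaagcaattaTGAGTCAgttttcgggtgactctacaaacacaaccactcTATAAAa
Mmp10, chr9:7502222-7502341: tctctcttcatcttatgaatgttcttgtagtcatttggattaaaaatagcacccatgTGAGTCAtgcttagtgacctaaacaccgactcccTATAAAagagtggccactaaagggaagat
Mmp8, chr9:7558309-7558428: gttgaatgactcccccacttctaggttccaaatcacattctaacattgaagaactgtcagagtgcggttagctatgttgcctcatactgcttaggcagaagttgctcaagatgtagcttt
Mmp27, chr9:7571276-7571395: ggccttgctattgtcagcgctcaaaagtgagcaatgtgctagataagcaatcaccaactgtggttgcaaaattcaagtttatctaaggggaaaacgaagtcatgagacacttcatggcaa

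RefSeq promoter windows (250 bases before to 50 after a start) were matched to 30 of the 44 members. TGAGTCA, read on either strand, was in a window of 6 of the 8 cluster members (Mmp1a, Mmp3, Mmp7, Mmp10, Mmp12 and Mmp13) and of 0 of the other 22 members with a window. It was in 5.20% of all 32851 windows and in at least 1 window of 5.95% of 27025 genes. TATAAA, read on either strand, was in a window of 7 of the 8 cluster members and of 2 of the other 22. It was in 13.6% of all windows and in at least 1 window of 15.7% of genes. Counted from the start, the AP-1 letters lay at -46 to -40 in Mmp3, at -63 to -57 in Mmp10, at -44 to -38 in Mmp12 and, on the other strand, at -35 to -29 in Mmp13. Mmp12 has 2 RefSeq starts, and the window of the upstream one has neither motif. The TATA letters of Mmp12 (4 to 9 bases after the start) and of Mmp8 (across the start, on the other strand) fall past the end of the stretch printed. Those of Mmp3 lay at -7 to -2, of Mmp13 at -16 to -11, of Mmp1a at -28 to -23 and of Mmp10 at -29 to -24. In Mmp7 they lay at -26 to -21 and at -123 to -118. The counts above thus take in matches anywhere in a window, and all positions depend on the RefSeq start. These are matches of letters, and binding was not measured. Mmp8 and Mmp27, called higher in HFD, lack the AP-1 letters in their windows. Mmp1a, Mmp7 and Mmp10 carry them but had too few counts to be tested in HFD against Chow. A link between the letters and the levels was not tested.

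Mmp12, the macrophage elastase (ENSMUSG00000049723, chr9:7344381-7369499), had 3456, 3192 and 3977 CPM in HFD 4, 30 and 38, against 91.2, 30.4 and 16.8 CPM in Chow 8, 17 and 19, and values below keep these orders of libraries. The groups were far apart, with a rise of 67.9-fold (log2 fold change 6.09 ± 0.56 (SE), adjusted p = 6.04e-05). Among all 16216 genes tested its fold change had rank 41 from the highest. Without Chow 8, the Chow library with the most Mmp12, the log2 fold change was 6.93. Per kilobase of exon it reached 489 ± 55.2 RPKM in HFD (mean ± SD, n = 3), rank 53 of 30315 genes, and 6.38 ± 5.48 RPKM in Chow. Macrophage markers moved with it, 6 of 8 higher and 1 lower, against 29.8% and 30.0% of all genes tested. Their summed level was 4005 to 4400 CPM in HFD and 497 to 1077 CPM in Chow. In bulk tissue, more cells of a type and more RNA per cell cannot be told apart. The CPM ratio of Mmp12 to Adgre1 was 3.55, 3.24 and 4.26 in HFD and 1.23, 0.741 and 0.801 in Chow. The median log2 fold change was 2.39 over the 8 macrophage markers and 5.16 over 6 lipid-associated macrophage markers. Of these 6, 5 were called higher and Lpl was not called. Those called include Spp1 (7.15 ± 0.39, log2 fold change ± SE), Gpnmb (6.39 ± 0.52) and Trem2 (5.51 ± 0.39). The part of lipid-associated macrophages in the level of Mmp12 was not tested.

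Mmp13, a collagenase (chr9:7272514-7283331), had 6.57, 8.50 and 7.93 CPM in HFD and 0.436, 0.298 and 0.0855 CPM in Chow. Mmp3, stromelysin-1, which cuts proteoglycans and activates other pro-MMPs (chr9:7445822-7455975), had 28.4, 35.0 and 34.1 CPM in HFD and 2.62, 1.12 and 0.940 CPM in Chow. The groups overlapped for neither gene, and Mmp13 rose 22.7-fold (log2 fold change 4.50 ± 0.34 (SE), adjusted p = 2.49e-05) and Mmp3 17.4-fold (log2 fold change 4.12 ± 0.26 (SE), adjusted p = 1.33e-05). Mmp27, an MMP of little-known function, had 2.21, 2.44 and 2.34 CPM in HFD and 1.02, 0.373 and 0.427 CPM in Chow. Mmp8, the neutrophil collagenase, had 1.07, 0.985 and 1.20 CPM in HFD and 0.363, 0.448 and 0 CPM in Chow. Both were low and did not overlap, and were called higher in HFD, Mmp27 with log2 fold change 1.68 ± 0.35 (SE), adjusted p = 0.00360, and Mmp8 with log2 fold change 1.69 ± 0.55 (SE), adjusted p = 0.0283. The call of Mmp8 was lost without any 1 of the 3 HFD libraries, with adjusted p of 0.0602 to 0.0763, and that of Mmp27 when all 12 libraries were fitted together (adjusted p = 0.0534). The summed level of 8 neutrophil markers was 10.4 to 12.4 CPM in HFD, with Ly6g at 0, and 1.88 to 11.0 CPM in Chow, with Camp at 0. The part of neutrophils in the level of Mmp8 was not tested.

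Mmp10, stromelysin-2, had 26, 18 and 19 counts in HFD and 0 in each Chow library, and did not pass the filter on low counts. It was called higher in every other setting that tested it, with adjusted p of 2.06e-05 in edgeR with no filter, 8.82e-05 in DESeq2, 0.0359 in the fit of all 12 libraries and 0.00262 to 0.00463 in edgeR without HFD 30 or any 1 Chow library, and the authors' deposited table gives 6.28e-05. With the Chow group set to 3 counts in all, it was 11.5-fold higher in HFD. That value allows for counting error in Chow but not in HFD, nor for spread between libraries. Mmp1a, listed as a polymorphic pseudogene, and Mmp7, matrilysin, stayed at 3 counts or fewer in each diet library.

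**Figure D2:**
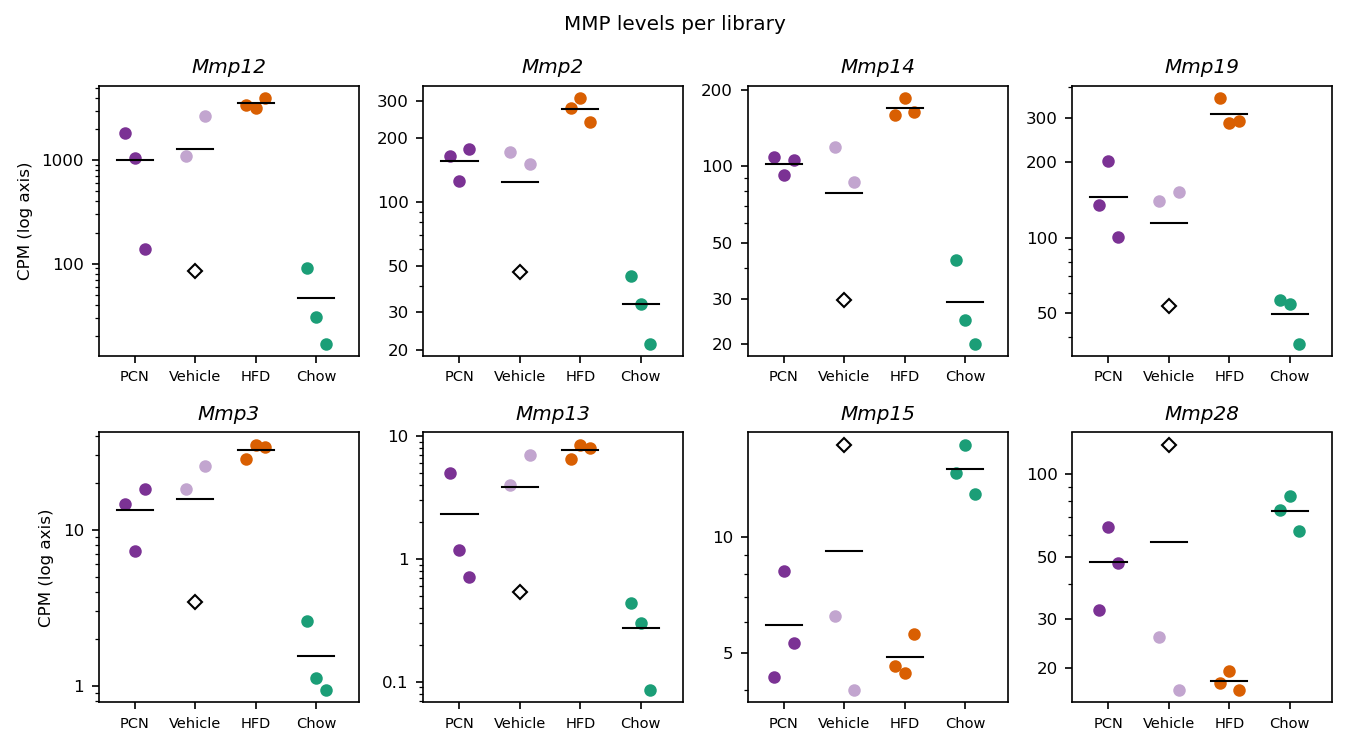
CPM of 8 MMPs in every library, on log axes that differ between panels, with groups from left to right HFD PCN, HFD Vehicle, HFD and Chow. Each point is 1 library, lines are means of 3, and the open diamond is HFD Vehicle 50; in HFD all 3 points of Mmp12, Mmp2, Mmp14, Mmp19, Mmp3 and Mmp13 lie above Chow and those of Mmp15 and Mmp28 lie below, and the diamond lies nearer to Chow than the other 2 HFD Vehicle points do in each panel.

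The gelatinases differed in direction. Mmp2, gelatinase A (chr8:92827291-92853420), had 277, 309 and 238 CPM in HFD and 44.6, 32.9 and 21.4 CPM in Chow, and it rose 7.12-fold (log2 fold change 2.83 ± 0.19 (SE), adjusted p = 1.51e-05). Mmp9, gelatinase B, had 3.62, 3.54 and 5.29 CPM in HFD and 7.71, 7.31 and 3.16 CPM in Chow. Its groups overlapped, and it was called lower at an adjusted p close to the threshold (log2 fold change -0.79 ± 0.29 (SE), adjusted p = 0.0419). That call was lost with DESeq2 (adjusted p = 0.0610), with library totals only (0.185), in a fit of all 12 libraries (0.0722) and without HFD 4, HFD 30, Chow 8 or Chow 17 (0.0992 to 0.144), and the authors' deposited table gives 0.0844.

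Mmp14, a membrane-anchored collagenase that activates pro-MMP2 at the cell surface (chr14:54431612-54445364), had 159, 185 and 163 CPM in HFD and 42.7, 24.8 and 20.1 CPM in Chow. It rose 4.94-fold with no overlap (log2 fold change 2.30 ± 0.20 (SE), adjusted p = 3.93e-05). Mmp23, a membrane-anchored MMP, had 23.3, 27.8 and 24.9 CPM in HFD and 10.9, 8.95 and 6.32 CPM in Chow. Mmp15, a membrane-type relative of Mmp14, had 4.61, 4.41 and 5.59 CPM in HFD and 14.8, 17.5 and 13.0 CPM in Chow. Mmp23 rose (log2 fold change 1.29 ± 0.14 (SE), adjusted p = 1.21e-04) and Mmp15 fell to levels 3.72-fold lower (log2 fold change -1.89 ± 0.16 (SE), adjusted p = 4.47e-05), each without overlap. Mmp17, a membrane-type MMP with a lipid anchor, had 1.62, 1.57 and 1.68 CPM in HFD and 1.38, 1.27 and 1.88 CPM in Chow, which overlapped (log2 fold change -0.16 ± 0.31 (SE), adjusted p = 0.669). Mmp25, another lipid-anchored form, known from leukocytes, had 0.849, 0.474 and 0.721 CPM in HFD and 1.16, 0.821 and 0.427 CPM in Chow and was not called. Mmp16 and Mmp24 were too low to be tested.

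Of the other secreted MMPs, Mmp19 (chr10:128790910-128800824) had 361, 287 and 292 CPM in HFD and 56.3, 54.1 and 37.7 CPM in Chow. It was 5.36-fold higher (log2 fold change 2.42 ± 0.14 (SE), adjusted p = 9.81e-06), but 28.3% of its exon bases are overlapped on the other strand by Tmem198b, which had 15.2 to 18.7 CPM in HFD and 3.95 to 10.7 CPM in Chow. The sources used here do not say if reads were counted by strand, so the values of these and other overlapping genes named below are uncertain to that extent. Mmp11, stromelysin-3, an MMP that is activated inside the cell by furin, had 25.1, 34.1 and 24.0 CPM in HFD and 8.72, 11.3 and 11.5 CPM in Chow. Mmp28, epilysin (chr11:83440768-83463071), had 17.6, 19.4 and 16.6 CPM in HFD and 73.9, 83.6 and 62.5 CPM in Chow. Mmp11 rose (log2 fold change 1.12 ± 0.22 (SE), adjusted p = 0.00275), and Mmp28 fell to a level 4.90-fold lower (log2 fold change -2.29 ± 0.12 (SE), adjusted p = 7.33e-06), both without overlap. On the other strand 1700020L24Rik overlaps 12.03% of the exon bases of Mmp28, and it had 0.255 to 0.360 CPM in HFD and 0.291 to 0.448 CPM in Chow. Mmp21 was too low to be tested.

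Summed per length over all MMP genes, levels were 735, 701 and 781 RPKM in HFD and 83.6, 69.8 and 50.1 RPKM in Chow. Mmp12 made up 62.9 to 70.4% of the sum in HFD and 4.64 to 15.1% in Chow. Without Mmp12 the sums were 257, 259.8 and 231 RPKM in HFD and 71.0, 65.6 and 47.8 RPKM in Chow. Of that remainder, Mmp2 took 30.6 to 35.3% in HFD and 13.3 to 18.7% in Chow, while Mmp28 took 1.77 to 1.93% in HFD and 26.9 to 33.7% in Chow.

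Among the ADAMTS genes, 2 of the 3 that trim procollagens rose and 0 fell, and of the 5 tested that cut proteoglycans 1 rose and 3 fell. In all 9 of 15 ADAMTS genes were called, close to the 59.8% of all genes, so these counts do not set the classes apart. Adamts2, the main procollagen N-proteinase (chr11:50602084-50807573), had 238, 299 and 244 CPM in HFD and 161, 135 and 78.6 CPM in Chow. Adamts14, its close relative, had 21.1, 26.6 and 21.7 CPM in HFD and 12.1, 9.47 and 10.1 CPM in Chow. Both rose without overlap, Adamts2 1.79-fold (log2 fold change 0.84 ± 0.18 (SE), adjusted p = 0.00380) and Adamts14 1.83-fold (log2 fold change 0.87 ± 0.15 (SE), adjusted p = 0.00141). Adamts3, the other procollagen N-proteinase, had 1.44, 2.01 and 1.86 CPM in HFD and 1.53, 1.79 and 1.62 CPM in Chow, which overlapped (log2 fold change -0.16 ± 0.27 (SE), adjusted p = 0.631).

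Of the proteoglycan-cleaving members, Adamts9 (ENSMUSG00000030022, chr6:92772699-92943492), a versican-cleaving protease, had 61.8, 62.8 and 63.4 CPM in HFD and 307, 327 and 312 CPM in Chow. Replicates were tight, and the level was 6.08-fold lower in HFD (log2 fold change -2.60 ± 0.14 (SE), adjusted p = 8.05e-06). On the other strand A730049H05Rik overlaps 11.99% of its exon bases, with 0.601 to 1.03 CPM in HFD and 1.97 to 3.28 CPM in Chow. Adamts1 (chr16:85793827-85803113), which cuts versican and aggrecan, had 59.8, 70.8 and 70.2 CPM in HFD and 105, 147 and 134 CPM in Chow. Adamts4, an aggrecanase, had 11.1, 10.3 and 10.9 CPM in HFD and 33.4, 21.9 and 17.9 CPM in Chow. Both fell, Adamts1 to a level 2.34-fold lower (log2 fold change -1.22 ± 0.19 (SE), adjusted p = 8.36e-04) and Adamts4 2.67-fold lower (log2 fold change -1.41 ± 0.16 (SE), adjusted p = 1.65e-04).

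Adamts15, another member of that group, went the other way, with 95.2, 102 and 85.7 CPM in HFD and 56.2, 27.9 and 38.4 CPM in Chow (log2 fold change 0.95 ± 0.21 (SE), adjusted p = 0.00531). Its call was lost when all 12 libraries were fitted together (adjusted p = 0.128). Adamts5, the major aggrecanase of mouse cartilage, lies 53.1 kb from Adamts1 on chromosome 16 and had 262, 299 and 259 CPM in HFD and 608, 296 and 159 CPM in Chow. The Chow libraries spanned the HFD values, and the difference was not called (log2 fold change -0.57 ± 0.33 (SE), adjusted p = 0.173). Without Chow 19, the library with the highest mitochondrial share, it was called lower (log2 fold change -0.84, adjusted p = 0.0269). Adamts8 and Adamts20 were too low to be tested.

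Adamts7 and Adamts12 cut cartilage oligomeric matrix protein (COMP). Adamts12 had 127, 141 and 158 CPM in HFD and 149, 142 and 127 CPM in Chow, and Adamts7 had 8.38, 10.5 and 10.8 CPM in HFD and 9.30, 10.9 and 9.40 CPM in Chow. The groups overlapped for both, with log2 fold changes of -0.23 ± 0.12 (SE, adjusted p = 0.121) and -0.26 ± 0.17 (SE, adjusted p = 0.218). With upper quartile scaling Adamts12 was called lower (log2 fold change -0.33, adjusted p = 0.0405), and library totals alone gave both a value just above 0.

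Of the remaining ADAMTS genes, Adamts10, a protease of fibrillin microfibrils, had 64.9, 71.3 and 63.1 CPM in HFD and 84.9, 95.3 and 92.5 CPM in Chow. Adamts17 had 0.627, 0.584 and 0.541 CPM in HFD and 1.02, 1.42 and 1.20 CPM in Chow, and Adamts18 had 0.627, 1.17 and 0.661 CPM in HFD and 2.54, 1.42 and 1.71 CPM in Chow. All were called lower without overlap, with log2 fold changes of -0.73 ± 0.14 (SE, adjusted p = 0.00283) for Adamts10, -1.29 ± 0.31 (SE, adjusted p = 0.00755) for Adamts17 and -1.43 ± 0.35 (SE, adjusted p = 0.00837) for Adamts18. The call of Adamts17 was lost in the fit of all 12 libraries (adjusted p = 0.0723). Adamts6 had 10.2, 11.9 and 6.67 CPM in HFD and 7.49, 11.9 and 9.83 CPM in Chow. Adamts16 had 2.07, 2.52 and 1.02 CPM in HFD and 2.11, 1.57 and 0.684 CPM in Chow. Neither was called, and their groups overlapped. Adamts19, with 0.369, 0.474 and 0.0601 CPM in HFD and 1.82, 0.671 and 0.598 CPM in Chow, and Adamts13, which cuts von Willebrand factor, did not pass the filter. Adamts19 was called lower in edgeR with no filter (adjusted p = 0.0102), without mitochondrially encoded genes (0.0237) and without Chow 19 (0.0337), and in DESeq2 (0.0336), but not in the fit of all 12 libraries (0.0596), and the authors' deposited table gives 0.0443.

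**Figure D3:**
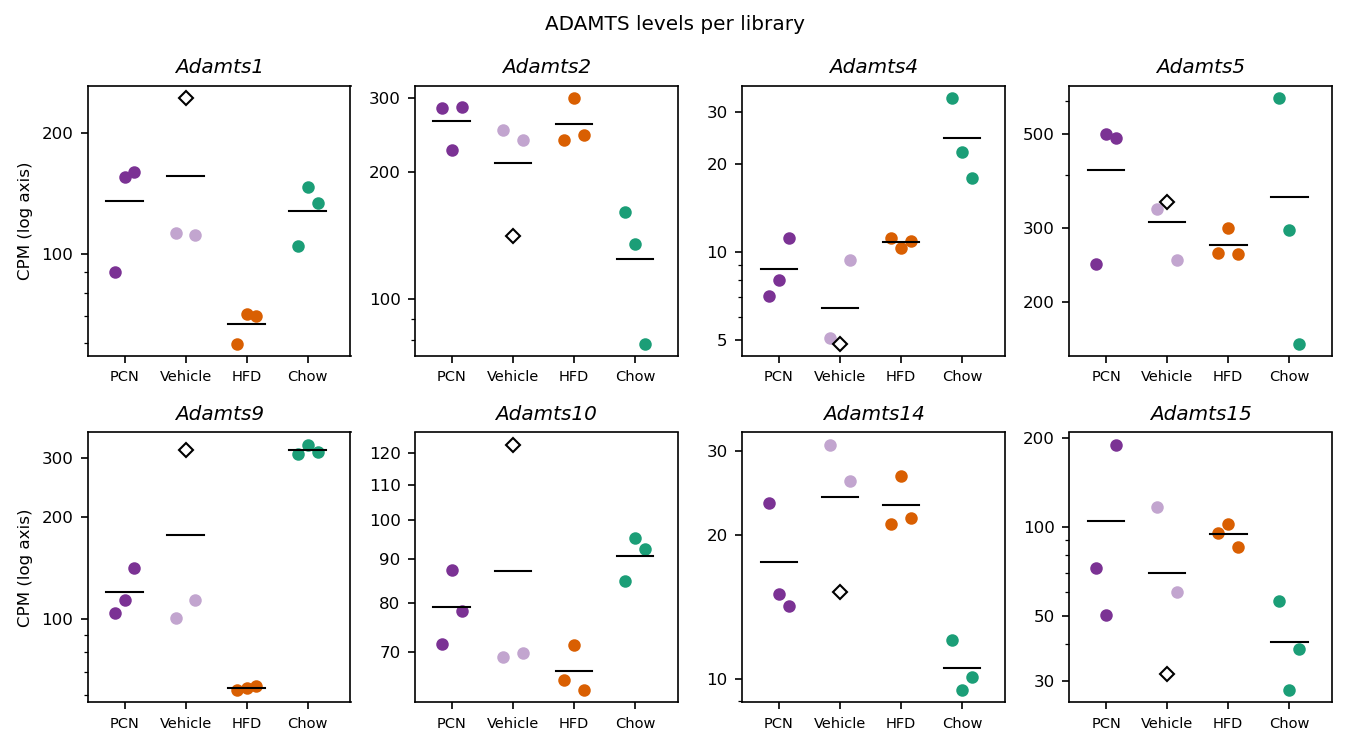
CPM of 8 ADAMTS genes in every library, on log axes that differ between panels, with groups from left to right HFD PCN, HFD Vehicle, HFD and Chow. Each point is 1 library, lines are means of 3, and the open diamond is HFD Vehicle 50; in HFD the 3 points of Adamts1, Adamts4, Adamts9 and Adamts10 lie below all Chow points and those of Adamts2, Adamts14 and Adamts15 above, and Adamts5 overlaps.

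All 4 TIMPs were called, in both directions. Timp1, an inducible secreted inhibitor (ENSMUSG00000001131, chrX:20870166-20874735), had 47.7, 45.2 and 46.4 CPM in HFD and 1.67, 0.970 and 1.03 CPM in Chow. Timp2, which also takes part in the activation of pro-MMP2 by Mmp14 (chr11:118301069-118355740), had 487, 487 and 442 CPM in HFD and 177, 106 and 64.3 CPM in Chow. Both rose without overlap, Timp1 31.8-fold (log2 fold change 4.99 ± 0.17 (SE), adjusted p = 2.65e-06) and Timp2 3.53-fold (log2 fold change 1.82 ± 0.25 (SE), adjusted p = 3.85e-04). Timp3, which is bound to the matrix and also inhibits ADAM17 and several ADAMTS proteases (chr10:86300372-86349506), had 217, 234 and 232 CPM in HFD and 697, 594 and 439 CPM in Chow. Timp4 (ENSMUSG00000030317, chr6:115241892-115252205), a TIMP known for a narrow tissue range, had 33.6, 22.5 and 21.2 CPM in HFD and 323, 231 and 162 CPM in Chow. Both fell without overlap, Timp3 to a level 2.99-fold lower (log2 fold change -1.58 ± 0.13 (SE), adjusted p = 3.16e-05) and Timp4 to one 10.8-fold lower (log2 fold change -3.43 ± 0.24 (SE), adjusted p = 1.76e-05). Syn3 overlaps 21.3% of the exon bases of Timp3 and had 0.360 to 0.701 CPM in HFD and 1.16 to 2.39 CPM in Chow.

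Per length, Timp2 made up 59.2, 59.9 and 57.3% of the summed TIMP level in HFD and 24.2, 19.4 and 16.7% in Chow, and Timp1 24.4 to 26.4% in HFD and 0.778 to 1.17% in Chow. Timp3 made up 12.6, 13.8 and 14.4% in HFD and 45.6, 52.0 and 54.5% in Chow, and Timp4 2.70, 1.83 and 1.82% in HFD and 29.2, 27.9 and 27.7% in Chow. Timp2 and Timp1 led in each HFD library and Timp3 and Timp4 in each Chow library. The ADAMTS sum was 104 to 120.2 RPKM in HFD and 105 to 156 RPKM in Chow, with Adamts2 at 24.3 to 26.6% of it in HFD and 8.02 to 11.2% in Chow, and Adamts9 at 3.47 to 3.96% in HFD and 13.1 to 19.7% in Chow. The summed TIMP level was 198 to 211 RPKM in HFD and 99.0 to 188 RPKM in Chow. These sums, like CPM, leave out TMM scaling, whose factors were 1.09 to 1.10 in HFD and 0.772 to 1.03 in Chow. Dividing by the factors would lower the HFD sums and raise those of Chow 17 and Chow 19. Whether the groups overlap in the ADAMTS and TIMP sums thus depends on the scaling, while shares and ratios within a library do not. The ratio of the MMP sum to the TIMP sum, with Mmp12 left out, was 1.17 to 1.25 in HFD and 0.378 to 0.483 in Chow. These are ratios of transcripts, and protein or activity was not measured.

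**Figure D4:**
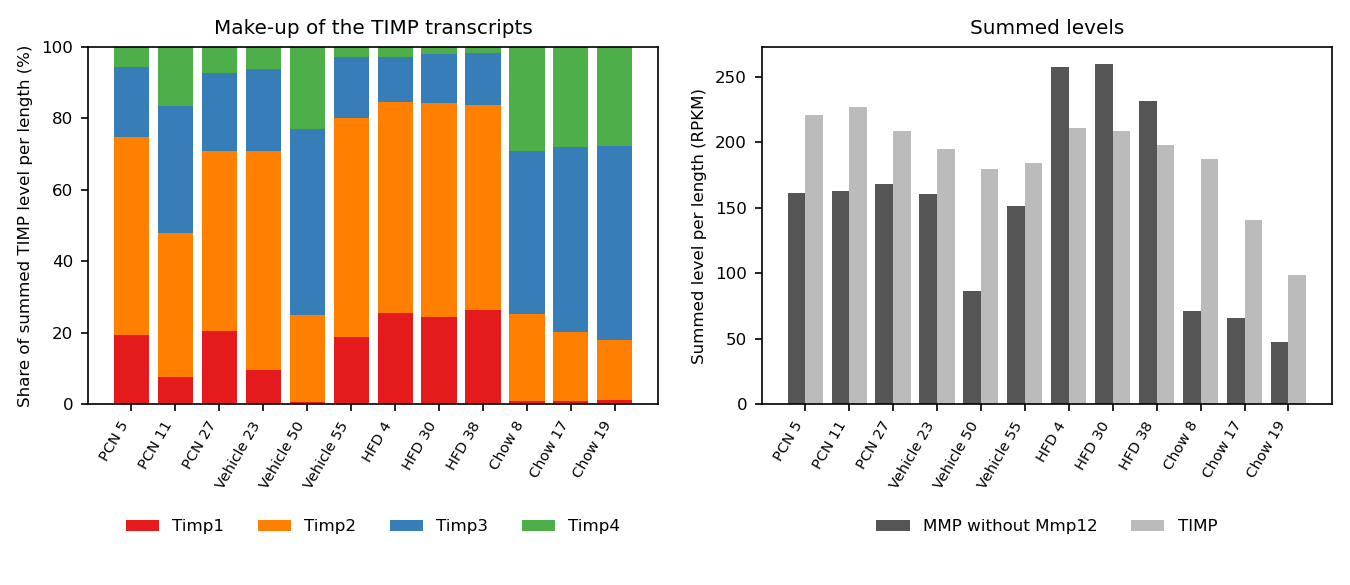
Left, share of each TIMP in the summed TIMP level per length (RPKM, in %) for every library, in the order HFD PCN, HFD Vehicle, HFD, Chow. Right, summed RPKM of the MMPs without Mmp12 (dark) and of the TIMPs (light) in the same libraries; Timp2 is the largest share in HFD (57.3 to 59.9%), Timp3 in Chow (45.6 to 54.5%) and in HFD Vehicle 50 (51.8%).

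Markers of several cell types moved with these members. Over all genes tested 59.8% were called, 29.8% higher and 30.0% lower, and the marker counts are to be read against that. Of 8 fibroblast and progenitor markers 6 were higher in HFD and 0 lower, with summed levels of 2801 to 3304 CPM in HFD and 702 to 1486 CPM in Chow. Of 6 lipid-associated macrophage markers 5 were higher, with Lpl, which adipocytes also express, not called, and Trem2 had 438 ± 6.51 CPM in HFD and 8.29 ± 5.91 CPM in Chow (SD, n = 3). All 6 endothelial markers were lower, with 400.3 to 404 CPM in HFD and 856 to 1154 CPM in Chow, as were 5 of 6 adipocyte markers, with 6966 to 8571 CPM in HFD and 10566 to 18807 CPM in Chow. Smooth muscle and pericyte markers were lower for 3 of 6, and none of 6 mesothelial markers was called. All 3 tested intestinal markers were lower, and no epididymis marker had enough counts. The part of these cell types in the members' levels was not tested.

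Other genes of the pathway were taken from lists by role, and values in parentheses are log2 fold changes ± SE of called genes. The counts of each list are to be read against the 59.8% of all genes that were called, 29.8% higher and 30.0% lower. ADAM proteases, membrane relatives of the ADAMTS, were higher for 6 of 8 tested and lower for 1. Adam8, a leukocyte protease, had 1031 ± 19.3 CPM in HFD and 24.4 ± 14.3 CPM in Chow (log2 fold change 5.20 ± 0.34 (SE), adjusted p = 1.52e-05). Adam12 (1.95 ± 0.15) and Adam17, the sheddase of tumour necrosis factor (1.38 ± 0.13), were also higher and Adam15 was lower (-0.96 ± 0.15). Of 6 ADAMTS-like proteins, which lack the protease domain, Adamtsl5 was higher (1.43 ± 0.22), and Adamtsl2 (-3.08 ± 0.44), Adamtsl4 (-2.01 ± 0.18) and Papln (-0.59 ± 0.21) were lower.

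In the plasminogen system, which activates pro-MMPs through plasmin, 5 of 6 tested genes were higher. Plau, urokinase, had 471 ± 32.7 CPM in HFD and 48.0 ± 13.7 CPM in Chow (log2 fold change 3.06 ± 0.15 (SE), adjusted p = 6.64e-06). Plaur, its receptor (1.77 ± 0.13), and Serpine2 (0.68 ± 0.14) were higher too. Of 9 tested genes for activation, inhibition and uptake of MMPs, 1 was higher and 4 lower. The 4 were the proprotein convertases Furin (-0.42 ± 0.10), Pcsk5 (-1.51 ± 0.20) and Pcsk6 (-2.50 ± 0.15), and Thbs1, a matrix protein that binds MMPs (-2.19 ± 0.32).

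Procollagen processing had 2 of 4 tested genes higher and 0 lower, namely Pcolce, an enhancer of procollagen cleavage (2.44 ± 0.16), and Bmp1, the C-proteinase (0.63 ± 0.10). Substrates had 6 of 12 higher and 2 lower. Col3a1, a fibrillar collagen, had 7174 ± 589 CPM in HFD and 1478 ± 608 CPM in Chow (log2 fold change 2.07 ± 0.28 (SE), adjusted p = 4.12e-04), and Col1a2 (1.35 ± 0.25), Comp (2.01 ± 0.25) and Vcan, versican (1.34 ± 0.17), were higher too. Transcription factors of the AP-1 and ETS families had 6 of 12 higher and 2 lower. Junb, an AP-1 subunit (1.85 ± 0.11), and Spi1, an ETS factor of macrophages (3.72 ± 0.22), were higher, and Ets1 (-1.15 ± 0.12) and Ets2 (-0.67 ± 0.10) were lower.

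HFD PCN was compared with HFD Vehicle to ask what the agonist adds on the same diet. Of 43 listed members 36 had enough counts to be tested, and 0 were called by edgeR, with 0 at an unadjusted p under 0.05 and a smallest adjusted p of 0.99986. DESeq2 also called 0 members. Over all 16563 genes tested, edgeR called 0, which is 0% (281 at an unadjusted p under 0.05), and DESeq2 called 1. Values did not overlap for 4 of the 36 members, 3 higher and 1 lower, against 6.82% of all genes tested, 5.06% higher and 1.76% lower. Log2 fold changes (HFD PCN over HFD Vehicle) ran from -0.95 to 1.37, 21 positive and 15 negative, with a median of 0.22 for the members and -0.00 for all genes. Without HFD Vehicle 50 they ran from -1.38 to 2.07, 24 positive and 12 negative, with a median of 0.22 for the members and -0.00 for all genes. On simulated data with this spread, 2% of 2-fold and 48% of 4-fold changes were recovered, so changes of such sizes could be missed.

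Values of the members follow, with libraries in the order HFD PCN 5, 11 and 27 and HFD Vehicle 23, 50 and 55. Mmp12 had 1830.4, 1059 and 139.9 CPM in HFD PCN and 1106, 85.1 and 2673 CPM in HFD Vehicle. The levels spanned more than 10-fold within both groups, and the estimate was wide (-0.40 ± 1.23, log2 fold change ± SE). In HFD PCN 27, Mmp12 was low while Adgre1 was at 739.8 CPM, a CPM ratio of Mmp12 to Adgre1 of 0.189, below the ratios of all the other libraries (2.28 and 3.44 in HFD PCN 5 and 11, 1.18 to 2.96 in HFD Vehicle, and the HFD and Chow values above). The summed macrophage markers of HFD PCN 27 were at 4466 CPM, the highest of all 12 libraries. Its summed lipid-associated macrophage markers were at 4999 CPM, against 9156 and 6772 CPM in HFD PCN 5 and 11. The latter sum was 9934, 4529 and 11080 CPM in HFD Vehicle, 11231 to 11861 CPM in HFD and 4307 to 7251 CPM in Chow. It includes Lpl, which adipocytes also express, and the part of such cells in the low Mmp12 was not tested. Mmp13 had 5.04, 1.17 and 0.715 CPM in HFD PCN and 4.00, 0.541 and 7.01 CPM in HFD Vehicle, Mmp10 had 1.46, 0.0558 and 0.179 CPM in HFD PCN and 1.10, 0.0902 and 2.05 CPM in HFD Vehicle, and Mmp3 had 14.7, 7.32 and 18.3 CPM in HFD PCN and 18.4, 3.43 and 25.5 CPM in HFD Vehicle. These neighbours of Mmp12 also varied within groups and overlapped between them.

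Mmp8 had 0.884, 0.335 and 1.31 CPM in HFD PCN and 0.531, 0.451 and 0.755 CPM in HFD Vehicle. Mmp27 had 3.11, 1.40 and 4.53 CPM in HFD PCN and 4.00, 0.451 and 1.94 CPM in HFD Vehicle. Both overlapped between the groups. Among the gelatinases, Mmp2 had 164, 126 and 177 CPM in HFD PCN and 173, 46.8 and 151 CPM in HFD Vehicle, and Mmp9 had 6.27, 4.19 and 5.54 CPM in HFD PCN and 2.29, 3.97 and 2.80 CPM in HFD Vehicle. All 3 Mmp9 values of HFD PCN lay above those of HFD Vehicle, with a log2 fold change of 0.76 ± 0.32 (SE) that was not called.

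Mmp14 had 109, 92.5 and 106 CPM in HFD PCN and 119, 29.9 and 87.0 CPM in HFD Vehicle. Mmp15 had 4.31, 8.15 and 5.30 CPM in HFD PCN and 6.25, 17.4 and 3.99 CPM in HFD Vehicle. For both, HFD Vehicle 50 lay apart on the Chow side of the group. Mmp17 had 1.92, 1.73 and 1.31 CPM in HFD PCN and 2.29, 2.25 and 1.40 CPM in HFD Vehicle. Mmp23 had 36.4, 26.4 and 32.4 CPM in HFD PCN and 28.2, 16.3 and 22.5 CPM in HFD Vehicle. These overlapped too. Mmp11 had 45.1, 45.2 and 75.5 CPM in HFD PCN and 40.5, 14.2 and 38.5 CPM in HFD Vehicle, with no overlap between the groups (log2 fold change 0.78 ± 0.41, SE, not called). Mmp25, with 0.692, 0.782 and 0.894 CPM in HFD PCN and 0.408, 0.271 and 0.539 CPM in HFD Vehicle, did not overlap either (0.85 ± 0.38, not called). Mmp19 had 136, 202 and 101 CPM in HFD PCN and 139.8, 53.5 and 152 CPM in HFD Vehicle, and Mmp28 had 32.4, 64.3 and 47.8 CPM in HFD PCN and 25.7, 127 and 16.6 CPM in HFD Vehicle, both overlapping.

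Among the procollagen N-proteinases, Adamts2 had 283, 226 and 284 CPM in HFD PCN and 251, 141 and 238 CPM in HFD Vehicle. Adamts3 had 3.23, 3.07 and 7.21 CPM in HFD PCN and 3.10, 4.15 and 2.43 CPM in HFD Vehicle. Adamts14 had 23.4, 15.1 and 14.2 CPM in HFD PCN and 30.9, 15.2 and 26.0 CPM in HFD Vehicle. The groups overlapped in each case. Adamts1 had 90.4, 156 and 159.9 CPM in HFD PCN and 113, 245 and 111 CPM in HFD Vehicle. Adamts4 had 7.07, 8.04 and 11.1 CPM in HFD PCN and 5.11, 4.87 and 9.38 CPM in HFD Vehicle. Adamts5 had 246, 499.9 and 488 CPM in HFD PCN and 332, 345 and 251 CPM in HFD Vehicle. None of these proteoglycan-cleaving members separated the groups. Adamts9 had 105, 114 and 141 CPM in HFD PCN and 101, 315 and 114 CPM in HFD Vehicle, and Adamts15 had 72.7, 50.3 and 190.2 CPM in HFD PCN and 117, 31.6 and 60.3 CPM in HFD Vehicle. HFD Vehicle 50 was the highest of these 6 libraries for Adamts9 and the lowest for Adamts15.

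Adamts12 was the member whose HFD PCN values all lay below HFD Vehicle, with 127, 116 and 117 CPM in HFD PCN and 174, 138 and 133 CPM in HFD Vehicle (-0.36 ± 0.17, not called). Adamts7 had 11.2, 9.10 and 13.1 CPM in HFD PCN and 8.25, 11.5 and 9.16 CPM in HFD Vehicle. Adamts6 had 9.92, 12.6 and 13.9 CPM in HFD PCN and 10.2, 15.7 and 9.16 CPM in HFD Vehicle. Adamts10 had 71.6, 87.5 and 78.3 CPM in HFD PCN and 69.1, 123 and 69.8 CPM in HFD Vehicle. The groups overlapped for all 3. Adamts16 had 2.50, 1.06 and 1.55 CPM in HFD PCN and 1.18, 0.361 and 0.323 CPM in HFD Vehicle. Adamts18 had 2.11, 1.95 and 1.91 CPM in HFD PCN and 1.55, 2.89 and 1.51 CPM in HFD Vehicle. Adamts19 had 1.27, 1.34 and 0.596 CPM in HFD PCN and 0.408, 0.812 and 0.0539 CPM in HFD Vehicle. These low members overlapped as well, and Adamts19 had the highest estimate of the 36 (1.37 ± 0.77). Adamts17, at 0.384, 0.726 and 0.417 CPM in HFD PCN and 0.204, 1.26 and 0.431 CPM in HFD Vehicle, was too low to be tested here.

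Timp1 had 37.9, 15.1 and 38.0 CPM in HFD PCN and 16.4, 1.08 and 30.5 CPM in HFD Vehicle. Timp2 had 477, 356 and 410.3 CPM in HFD PCN and 465, 171 and 441 CPM in HFD Vehicle. Each had its lowest value in HFD Vehicle 50. Timp3 had 355, 662 and 372 CPM in HFD PCN and 366, 757 and 253 CPM in HFD Vehicle, and Timp4 had 71.3, 219 and 89.3 CPM in HFD PCN and 70.8, 244 and 30.7 CPM in HFD Vehicle. For these 2 HFD Vehicle 50 was the highest. Per length, Timp3 made up 19.7, 35.8 and 21.9% of the TIMP sum in HFD PCN and 23.0, 51.8 and 16.9% in HFD Vehicle, and Timp2 55.5, 40.3 and 50.4% in HFD PCN and 61.3, 24.4 and 61.6% in HFD Vehicle. None of the 6 mesothelial markers was called between these groups, with 54.5 to 101 CPM summed in HFD PCN and 9.38 to 54.0 CPM in HFD Vehicle, and their part in the members' values was not tested.

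Leaving out HFD Vehicle 50 left 36 members tested and 0 called by edgeR, with 5 at an unadjusted p under 0.05 and a smallest adjusted p of 0.80. Values then did not overlap for 8 members higher in HFD PCN and 3 lower, against 13.7% and 7.24% of all genes. Estimates of several members turned sign, in both directions. Mmp28 was at 1.14 ± 0.32 without that library and -0.31 ± 0.77 with it, and Adamts9 at 0.11 ± 0.18 without and -0.64 ± 0.47 with it. Timp3 was at 0.54 ± 0.32 without and -0.06 ± 0.48 with it, and Mmp15 at 0.16 ± 0.34 without and -0.70 ± 0.59 with it. Adamts1, Adamts6, Adamts10 and Adamts18 also turned from negative to positive. Mmp2 turned the other way, at -0.10 ± 0.19 without and 0.28 ± 0.45 with the library, as did Mmp14, Mmp19, Mmp27 and Timp2. Timp4 kept its sign, at 1.28 ± 0.55 without and 0.06 ± 0.80 with it. Without the library, Adamts19 was at 2.07 ± 0.72, Mmp9 at 1.03 ± 0.28, Mmp25 at 0.69 ± 0.42 and Mmp11 at 0.44 ± 0.25. Adamts12 was then at -0.39 ± 0.16, Adamts14 at -0.74 ± 0.24 and -0.51 ± 0.31 with it, Mmp12 at -0.96 ± 0.89, and Timp1 at 0.32 ± 0.44 without and 0.86 ± 0.93 with it. The 5 with an unadjusted p under 0.05 were Adamts12, Adamts14, Adamts19, Mmp9 and Mmp28. Over all genes, edgeR called 0 of 16873 without the library, and DESeq2 called 44 of 29853 (0.147%), 41 higher (0.137%) and 3 lower (0.0100%), 0 of them members.

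**Figure D5:**
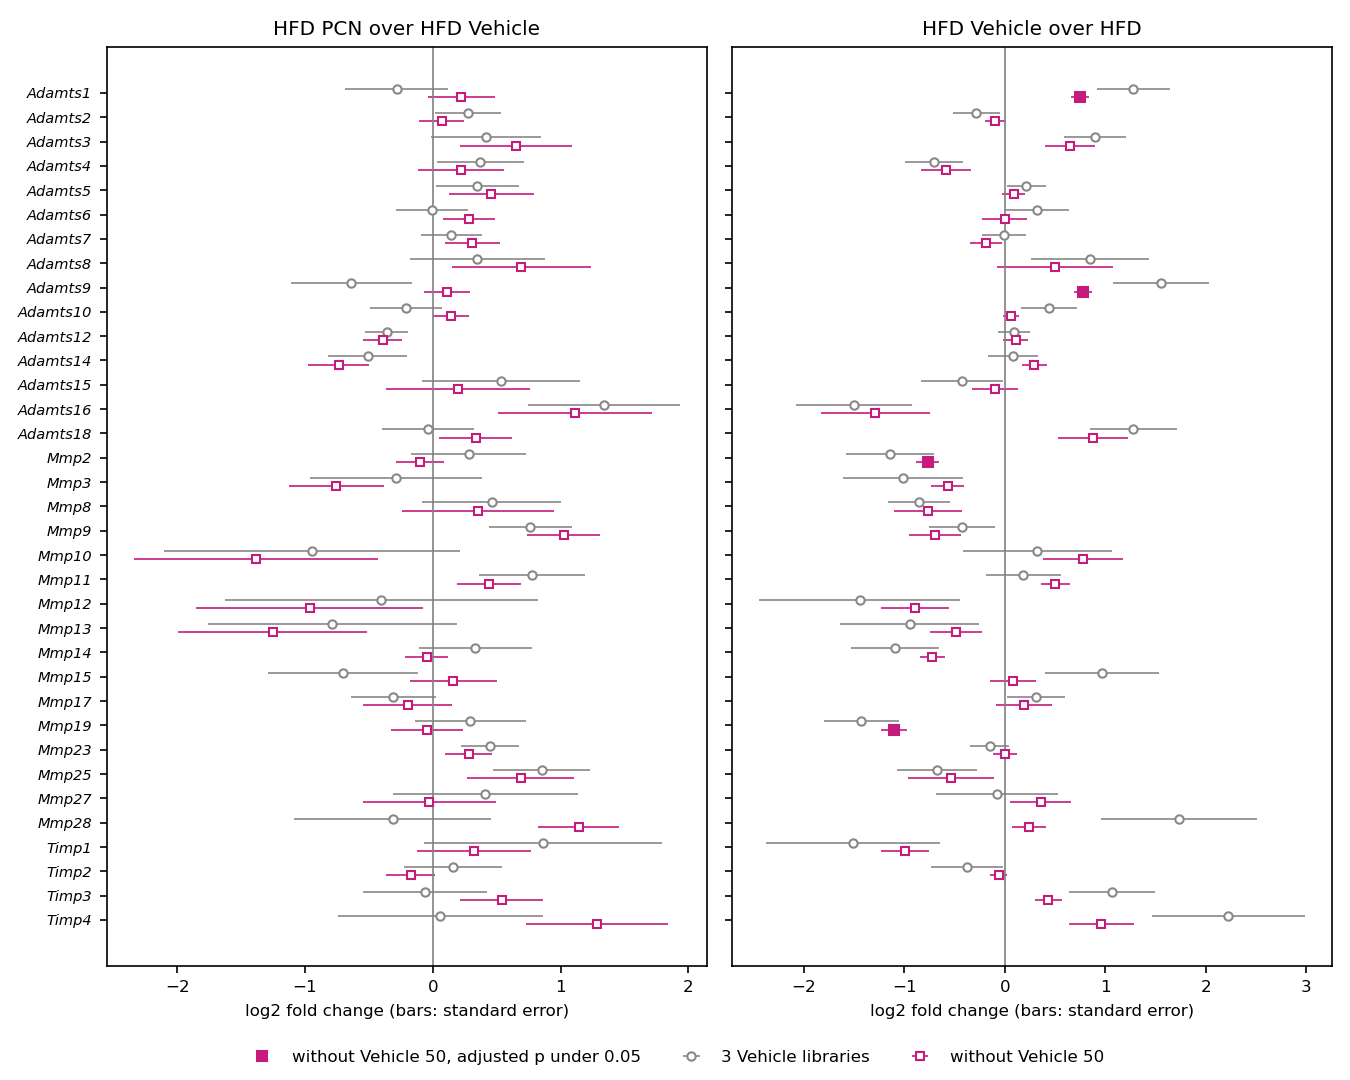
Log2 fold change of HFD PCN over HFD Vehicle (left) and of HFD Vehicle over HFD (right) for the 35 members tested in both, with all 3 HFD Vehicle libraries (circles) and without HFD Vehicle 50 (squares). Bars are standard errors and filled squares have an adjusted p under 0.05; on the left none is filled, and on the right Adamts1, Adamts9, Mmp2 and Mmp19 are.

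HFD Vehicle was also set against the HFD group, for which no injection is stated, over genes listed in both tables, to see how far the members differed among the high-fat groups apart from PCN. This comparison shares its libraries with the other two, and the counts of its groups come from separate tables. With all libraries, 0 of 36 members tested were called by edgeR, and 12 had an unadjusted p under 0.05, 6 higher and 6 lower. Over all 16781 genes edgeR called 0, which is 0% (1639 at an unadjusted p under 0.05), and DESeq2 called 91, with 0 members. CPM values did not overlap for 13 of the 36 members, 5 higher and 8 lower in HFD Vehicle, against 28.1% of all genes tested, 13.4% higher and 14.7% lower. Without HFD Vehicle 50 it was 6 higher and 10 lower, against 17.8% and 17.1%.

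Without HFD Vehicle 50, edgeR called 4 members, 2 higher and 2 lower, and 172 of 17313 genes (0.993%), 100 higher (0.578%) and 72 lower (0.416%). DESeq2 without it called 6 members, 2 higher and 4 lower, and 708 of 27503 genes (2.57%, with 1.44% higher and 1.13% lower). Limma-voom called 5 members, 2 higher and 3 lower, and 158 genes (0.913%, with 0.531% higher and 0.381% lower). Mmp19 had 139.8 and 152 CPM in HFD Vehicle 23 and 55, against 361, 287 and 292 CPM in HFD. Mmp2 had 173 and 151 CPM in these HFD Vehicle libraries, against 277, 309 and 238 CPM in HFD. Both were lower in HFD Vehicle, Mmp19 with log2 fold change -1.11 ± 0.13 (SE), adjusted p = 0.0201, and Mmp2 with log2 fold change -0.77 ± 0.12 (SE), adjusted p = 0.0351. Adamts9 had 101 and 114 CPM in HFD Vehicle, against 61.8, 62.8 and 63.4 CPM in HFD. Adamts1 had 113 and 111 CPM in HFD Vehicle, against 59.8, 70.8 and 70.2 CPM in HFD. Both were higher in HFD Vehicle, Adamts9 with log2 fold change 0.78 ± 0.09 (SE), adjusted p = 0.0201, and Adamts1 with log2 fold change 0.75 ± 0.09 (SE), adjusted p = 0.0201. Mmp14 was just outside the threshold (log2 fold change -0.72 ± 0.13 (SE), adjusted p = 0.0511), and was called lower by limma-voom (adjusted p = 0.0496) and by DESeq2 (4.14e-05) without that library. DESeq2 without it also called Timp1 lower (0.00172), where edgeR gave log2 fold change -0.99 ± 0.24 (SE), adjusted p = 0.103.

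Of the 4 called members, Mmp2 and Mmp19 had been higher and Adamts1 and Adamts9 lower in HFD than in Chow. The comparisons share the HFD libraries, so the 2 sets of values are not independent of each other. In the same 2 HFD Vehicle libraries the summed macrophage markers were at 4270.4 and 4333 CPM, and at 4005 to 4400 CPM in HFD. Fibroblast markers were at 2634 and 2602 CPM in those libraries, and at 2801 to 3304 CPM in HFD, and without HFD Vehicle 50, 2 of 8 fibroblast markers were called lower. Endothelial markers were at 493 and 498 CPM in those libraries, against 400.3 to 404 CPM in HFD, with 1 of 6 called higher. Lipid-associated macrophage markers were at 9934 and 11080.0 CPM, against 11231 to 11861 CPM in HFD, with 0 of 6 called. The part of these cell types in the 4 calls was not tested. Mmp12 itself, at 1106 and 2673 CPM in HFD Vehicle 23 and 55, was below all 3 HFD libraries and not called (log2 fold change -0.90 ± 0.34 (SE), adjusted p = 0.252). Mmp28, at 1.73 ± 0.78 (log2 fold change ± SE) with all libraries, was at 0.24 ± 0.17 without HFD Vehicle 50, and Timp4, at 2.22 ± 0.76, was at 0.96 ± 0.32. Neither was called.

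The 9 members under 1 CPM in every group were Adamts8, Adamts13, Adamts20, Mmp1a, Mmp7, Mmp16, Mmp21, Mmp24 and Mmp25. Mmp1a had 1 count in all, in HFD 38. Adamts8 had 24, 23 and 12 counts in HFD PCN, 8, 12 and 16 in HFD Vehicle, 8, 9 and 11 in HFD and 5, 1 and 6 in Chow, and was tested in the comparisons with HFD Vehicle, without a call. Adamts20 had 11, 6 and 6 counts in HFD PCN and 4, 4 and 1 in HFD Vehicle, and Mmp16 had 17, 5 and 2 counts in HFD PCN and 7, 3 and 0 in HFD Vehicle. Adamts13, made mainly by liver stellate cells, had 5, 3 and 1 counts in HFD PCN and 0 in each HFD Vehicle library. With HFD Vehicle set to 3 counts in all it was 2.67-fold higher, with the counting error of HFD PCN not allowed for. It had 5 counts in HFD against 3 in Chow. Mmp7, Mmp21 and Mmp24 stayed at 6 counts or fewer in every library. Genes on the other strand overlap 10.6 to 13.6% of the exon bases of Adamts8, Mmp7 and Mmp24. Apart from Mmp25 and Adamts8, these members did not pass the filter in any comparison.

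Ranked by level per length, the highest members in HFD were Mmp12, Timp2 (121 ± 6.71 RPKM), Mmp19 (88.6 ± 11.7), Mmp2 (81.6 ± 10.5) and Timp1 (52.3 ± 1.38). In Chow they were Timp3 (70.8 ± 15.9 RPKM), Timp4 (40.5 ± 13.8), Adamts5 (32.9 ± 21.3), Timp2 (29.7 ± 14.6) and Adamts1 (24.2 ± 4.06). HFD PCN had Mmp12 (139.5 ± 117 RPKM), Timp2 (106 ± 15.5) and Timp3 (56.8 ± 21.2) at the top, and HFD Vehicle the same 3 genes in the same order (178 ± 180.1, 92.2 ± 42.0 and 56.3 ± 32.5 RPKM). Without HFD Vehicle 50 the order in HFD Vehicle was Mmp12 (mean 261 RPKM of 2 libraries), Timp2 (116), Mmp2 (48.0), Mmp19 (41.2) and Timp3 (38.0). Values with ± are means and SD over 3 libraries, and the SD of Mmp12 in the injected groups was close to its mean. Lengths are of all annotated exons of a gene merged, for example 7237 bases for Mmp12 and 1801 for Mmp3. Ranks, shares and ratios between genes depend on that choice of length.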

How the data were processed

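RNA was sequenced from 12 libraries, 3 in each of 4 groups. Whole-number counts per gene were deposited by the authors in 1 table for the diet groups and 1 for the injected groups. The submitters' processing notes name HISAT2, HTSeq and DESeq2 and the build GRCm38/mm10, without versions or settings. The same tables hold other columns by the authors (normalised means, log2 fold changes and adjusted p-values), quoted only where named.

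CPM are counts over the library total of their table, and RPKM are CPM per kilobase of merged exons (GENCODE M21). All adjusted p-values come from edgeR 4.0.16 (R 4.3.3), unless another tool is named: quasi-likelihood test, TMM scaling, filterByExpr, Benjamini-Hochberg over all genes tested, called under 0.05. SE is the log2 fold change over the root of F. Each fit held only its 2 groups. DESeq2 1.42.0 and limma 3.58.1 were alternatives. On simulated data with 200 changed genes, 57% of 2-fold and 89% of 4-fold changes were recovered for HFD against Chow. Recovery was 2% and 48% for HFD PCN against HFD Vehicle, and 3% and 55% for HFD Vehicle against HFD. In the real HFD against Chow data 59.8% of genes were called, a far larger share than was simulated, so recovery there may differ. Floors cover only the counting error of the group without counts.

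Members averaging at least 1 CPM in at least 1 group are given in every library, the other 9 by counts or ranges, and pathway genes by up to 4 called genes of smallest p per list. A listed pathway gene is not reported here. The members and the lists were chosen with earlier results of these data known. RefSeq promoter windows are from GRCm38.p6, and 14 members had none.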

Additional observations from a re-analysis of the deposited data

How the results depend on the processing

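No paired analysis was possible because no replicate number is shared between groups. In HFD against Chow, 23 to 29 members were called over all alternatives, and no called member changed sign. Among the 34 members tested, calls lost or gained were those of Mmp9, Mmp8, Mmp27, Adamts15, Adamts17, Adamts12 and Adamts5. Of the 10 that did not pass the filter, Mmp10 and Adamts19 were called in some settings. In HFD PCN against HFD Vehicle, 0 members were called in every alternative run, while over all genes DESeq2 called 1, 2 passed in the authors' deposited table, and DESeq2 without HFD Vehicle 50 called 44. In HFD Vehicle against HFD, leaving out 1 library at a time gave 0 to 4 members (0 to 2 higher, 0 to 2 lower) and 0 to 172 genes, all above 0 coming from leaving out HFD Vehicle 50. DESeq2 with all libraries called 91 genes. Running the other tools without HFD Vehicle 50 was chosen after seeing the data. DESeq2 then called 6 members (2 higher, 4 lower) and 708 genes, and limma-voom 5 members (2 higher, 3 lower) and 158 genes. The cause was not tested. Values that were not called in either setting differed in sign from the reported one in 7 of 542, 64 of 644 and 26 of 604 cases in HFD against Chow, HFD PCN against HFD Vehicle and HFD Vehicle against HFD. Precision is limited by 3 libraries a group, and for the lowest members by counts of under 10.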
